A study of Mus musculus with 9 samples.

Results

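The nocturnin gene Ccrn4l, the corepressor gene Bcor, the prohormone convertase gene Pcsk1 and the aggrecan gene Acan were chosen by their readout, as activity-regulated genes whose RNA stood highest 120 min after the start of odor exposure in the olfactory bulb. They are 4 of the 27497 Ensembl gene identifiers in the deposited table, and all 4 were among the 12780 with a mean of at least 1 RPKM, a read count scaled by gene length and library size. Because the choice used all 3 groups of mice, their differences between groups are given as descriptions, with a standard error and no test.

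Poly(A)+ RNA of the olfactory bulb was sequenced in 9 mice of the strain C57/BL6, adults of 6 to 8 weeks or more, with 3 mice in each of 3 groups. Clean air mice were kept in carbon-filtered air with no odor. Mice called 30 min were killed as soon as their exposure to mixed odorants, which lasted 30 min, was over, and mice called 120 min had those 30 min followed by 90 min of clean air. A single clean air group served as the control for both times.

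Immediate early genes such as Fos are transcribed within minutes of neuronal firing from factors already present in the cell. Late or secondary response genes follow, many of them after new transcription factors have been made, and encode proteins that act on the cell itself, its secretions or its surroundings. Ccrn4l encodes nocturnin, a relative of the CCR4 deadenylases that has been described as a phosphatase of NADP(H) and whose RNA cycles with the circadian clock in many mouse tissues. Bcor encodes a corepressor that BCL6 recruits and that is part of a variant Polycomb complex, PRC1.1. Pcsk1 encodes PC1/3, the protease that cuts peptide hormone and neuropeptide precursors in secretory granules, and Acan encodes aggrecan, a chondroitin sulfate proteoglycan of perineuronal nets, the matrix around certain neurons.

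The start-site sequences of the 4 genes are shown so that they can be read for motifs of activity-regulated factors. The shared time course of the genes is what chose them, so nothing is read from it. Each window holds 250 bases before and 50 after a RefSeq transcript start in the build GRCm38.p6, printed 5′ to 3′ on the strand of the gene, and all 4 genes were matched by symbol or synonym. Capitals mark every match to the motifs searched, on either strand. The windows are Ccrn4l at chr3:51224197-51224496 on the plus strand, Bcor at chrX:12160297-12160596 on the minus strand, Pcsk1 at chr13:75089607-75089906 on the plus strand and Acan at chr7:79052976-79053275 on the plus strand.
Ccrn4l: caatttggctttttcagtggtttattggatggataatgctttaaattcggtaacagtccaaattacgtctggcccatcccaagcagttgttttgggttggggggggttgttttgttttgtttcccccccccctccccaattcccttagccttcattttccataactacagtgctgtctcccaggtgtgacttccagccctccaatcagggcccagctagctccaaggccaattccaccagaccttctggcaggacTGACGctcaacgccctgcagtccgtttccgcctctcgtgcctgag
Bcor: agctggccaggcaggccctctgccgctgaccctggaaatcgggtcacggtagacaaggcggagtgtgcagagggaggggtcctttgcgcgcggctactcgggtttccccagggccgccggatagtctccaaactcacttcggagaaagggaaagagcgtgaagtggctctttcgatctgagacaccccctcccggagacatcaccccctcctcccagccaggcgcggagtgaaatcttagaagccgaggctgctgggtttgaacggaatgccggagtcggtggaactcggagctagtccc
Pcsk1: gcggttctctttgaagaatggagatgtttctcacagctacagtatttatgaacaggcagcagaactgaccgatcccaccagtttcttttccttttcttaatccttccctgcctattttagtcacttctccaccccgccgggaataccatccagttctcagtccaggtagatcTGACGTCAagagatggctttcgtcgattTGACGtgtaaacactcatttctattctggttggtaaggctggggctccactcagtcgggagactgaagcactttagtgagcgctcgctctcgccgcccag
Acan: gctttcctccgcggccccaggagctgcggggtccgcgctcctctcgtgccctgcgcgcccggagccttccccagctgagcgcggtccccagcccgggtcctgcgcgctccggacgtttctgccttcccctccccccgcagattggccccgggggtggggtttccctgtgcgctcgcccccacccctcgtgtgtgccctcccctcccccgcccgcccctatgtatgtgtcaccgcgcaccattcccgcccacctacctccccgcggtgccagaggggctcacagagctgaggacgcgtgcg

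Of the 4 windows, that of Pcsk1 held a full cAMP response element, the site of CREB, written TGACGTCA, beginning 78 bases before the start. This element was found in 1.79% of the 32851 windows of the 27025 genes in the RefSeq promoter set. A further copy of its core TGACG, which also lies within the full element on both strands, began 50 bases before the start of Pcsk1. The Ccrn4l window held the core alone, at position 6 after the start, and the core was present in 20.8% of all windows. No match to the other 6 motifs was found in the windows of the 4 genes, and those of Bcor and Acan held none of the 8. The other motifs and their shares of all windows were AP-1 (TGANTCA, 7.81%), EGR (GCGNGGGCG, 5.55%), the E-box of clock factors (CACGTG, 7.15%), the NR4A element (AAAGGTCA, 1.51%), the TATA box (TATAAA, 13.6%) and the CArG box of SRF (1.63%). Bcor has a further RefSeq start whose window begins 9 bases away and also held no match. A match describes letters in a short window and is not evidence that a factor binds there.

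The windows differed in base composition. Acan was the most GC-rich at 74% GC with 31 CpG dinucleotides, a GC share above that of 95.2% of all windows. Bcor followed with 62.3% GC and 21 CpG. Ccrn4l had 52% GC and 7 CpG, and Pcsk1 had 49.3% GC and 13 CpG, while the median window had 52.7% GC and 7 CpG.

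Ccrn4l was the most abundant of the 4 genes. Its level in clean air mice 1, 2 and 3 was 17.49, 19.31 and 16.2 RPKM. In the 30 min mice it was 23.65, 22.22 and 18.21 RPKM, and in the 120 min mice 39.29, 37.91 and 46.58 RPKM. Every 120 min mouse lay well above every mouse of both other groups, while the lowest 30 min mouse fell below the highest clean air mouse. The means were 17.7 ± 1.56, 21.4 ± 2.82 and 41.3 ± 4.66 RPKM (SD, n = 3 each). On the log2(RPKM + 0.5) scale, on which the changes of low genes are understated, the difference from clean air was 0.26 ± 0.16 (SE) at 30 min and 1.20 ± 0.16 at 120 min, a 2.3-fold difference. Between 30 min and 120 min it was 0.94 ± 0.16, or 1.91-fold.

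Bcor showed nearly the same relative course from a lower level. Clean air mice 1, 2 and 3 had 5.99, 6.01 and 6.18 RPKM. The 30 min mice had 8.97, 7.71 and 7.26 RPKM and the 120 min mice 13.31, 13.42 and 17.14 RPKM. The 3 groups did not overlap, and each later group lay above the one before. The means were 6.06 ± 0.104, 7.98 ± 0.886 and 14.6 ± 2.18 RPKM (SD, n = 3 each). The log2 difference from clean air was 0.37 ± 0.17 (SE) at 30 min and 1.20 ± 0.17 at 120 min, or 2.29-fold, and 0.83 ± 0.17 lay between the 2 odor groups. The clean air mice lay closer together than counting error, at 2.5% to 4.29% per library, would by itself spread them, with a coefficient of variation of 1.72%.

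Pcsk1 also separated all 3 groups. Its levels were 7.47, 7.11 and 5.51 RPKM in clean air mice 1, 2 and 3. They were 8.22, 10.22 and 8.78 RPKM at 30 min and 16.61, 12.52 and 12.81 RPKM at 120 min. No mouse of one group reached the range of the next, although the lowest 30 min mouse lay close to the highest clean air mouse. The means were 6.7 ± 1.04, 9.07 ± 1.03 and 14 ± 2.28 RPKM (SD, n = 3 each). Its log2 difference from clean air was 0.42 ± 0.19 (SE) at 30 min, where it had the highest value of the 4 genes, and 1.01 ± 0.19 at 120 min, or 2.01-fold. From 30 min to 120 min the log2 difference was 0.59 ± 0.19.

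Acan had the lowest level and the smallest difference of the 4 genes. Clean air mice 1, 2 and 3 had 3.72, 3.05 and 4.09 RPKM. The 30 min mice had 4.18, 4.23 and 3.9 RPKM, and the 120 min mice 6.5, 5.85 and 6 RPKM. The clean air and 30 min mice of Acan overlapped, and all 3 mice at 120 min lay above both. The means were 3.62 ± 0.527, 4.1 ± 0.178 and 6.12 ± 0.34 RPKM (SD, n = 3 each). Its log2 difference from clean air was 0.17 ± 0.18 (SE) at 30 min and 0.69 ± 0.18 at 120 min, or 1.61-fold, and the difference between the odor groups was 0.52 ± 0.18. The 30 min difference was 0.06 without clean air mouse 2, and 0.09 or 0.08 after median scaling or quantile normalization of the libraries. In whole bulb, a change in RNA per cell and a change in the number of cells that carry the RNA cannot be told apart.

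**Figure D1:**
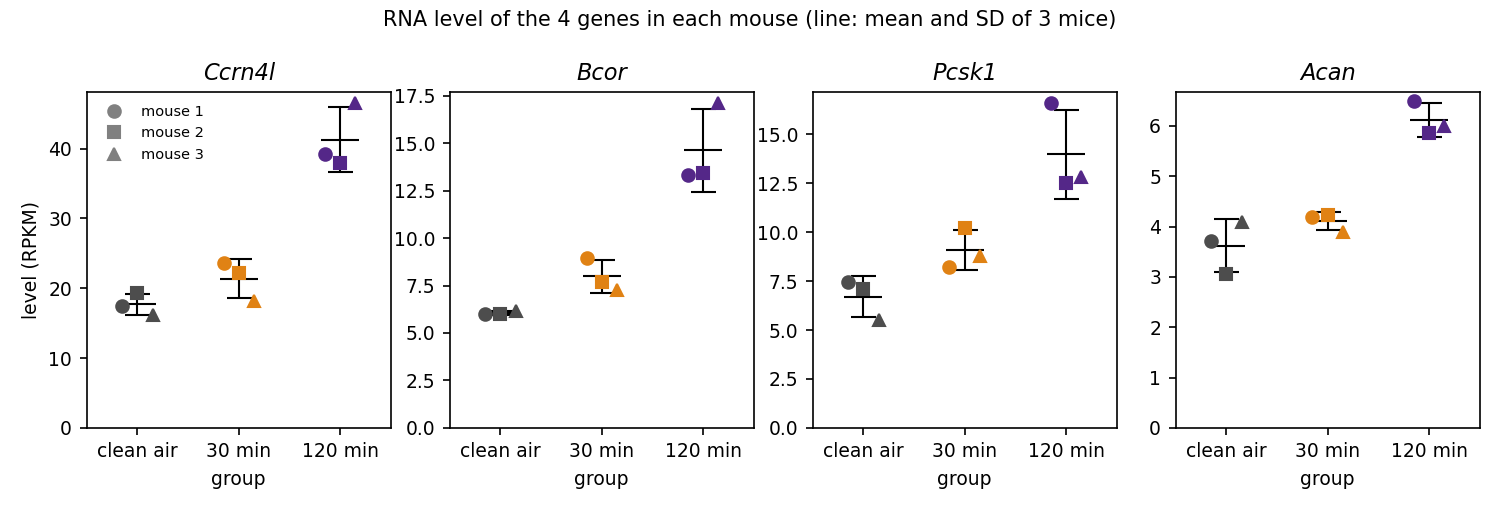
RNA level (RPKM, linear axes from 0) of Ccrn4l, Bcor, Pcsk1 and Acan in each of the 9 mice by group, with the marker shape giving the mouse number and the bars the group mean and SD (n = 3). The 3 mice at 120 min lie above all others in each panel, and the clean air and 30 min mice overlap for Ccrn4l and Acan.

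All 4 genes met the description that every 120 min mouse lay above every mouse of both other groups, which 2.09% of the 12780 genes did. Since that pattern is what chose them, nothing is read from the count. Taken group by group, every 120 min mouse lay above every clean air mouse in 7.86% of genes and above every 30 min mouse in 4.99%. At 30 min, when 7.29% of genes had every odor mouse above every clean air mouse, Bcor and Pcsk1 were among them and Ccrn4l and Acan were not. By size of the log2 difference between 120 min and clean air, Ccrn4l and Bcor stood 37th and 38th of 12780 genes, Pcsk1 72nd and Acan 321st. By the difference between 30 min and clean air, the same genes stood 2811th, 1561st, 1124th and 4525th.

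The share of the 120 min difference in mean RPKM that was already present at 30 min was 15.7% for Ccrn4l, 19.4% for Acan, 22.4% for Bcor and 32.6% for Pcsk1. Fosl2, an AP-1 subunit gene also high at 120 min, had 59.6% of its difference at 30 min. Homer1, which encodes a postsynaptic scaffold with a short activity-induced form, had 12.3%. Without clean air mouse 2 the share of Acan was 8.97%, and that of Homer1 moved between 0.58% and 18.9% without single mice. These shares are descriptions of group means, and how far they differ between genes was not tested.

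The 4 genes ran opposite to the early genes between 30 and 120 min. Fos, an AP-1 subunit gene, averaged 6.96 RPKM in clean air, 155 RPKM at 30 min and 20.8 RPKM at 120 min. Its log2 difference was 4.53 ± 0.33 (SE) at 30 min (limma, adjusted p = 0.000165) and then -2.88 ± 0.33 from 30 to 120 min (adjusted p = 0.0055). Npas4, a neuronal activity-regulated transcription factor gene, rose by 3.04 ± 0.20 (adjusted p = 6.69e-05) and fell by 3.23 ± 0.20 (adjusted p = 6.25e-05). Arc, a postsynaptic effector gene, rose by 3.57 ± 0.29 (adjusted p = 0.000276) and fell by 2.84 ± 0.29 (adjusted p = 0.00344). Egr1, a zinc finger factor gene, rose by 3.25 ± 0.35 (adjusted p = 0.00261), and its difference from 30 to 120 min was -2.37 ± 0.35 (adjusted p = 0.0489). That difference stayed between -2.41 and -2.33 over the alternatives, but the call was lost in 13 of them, with adjusted p of 0.0516 to 0.314. They were leaving out any single mouse other than clean air mouse 3, the pseudocount of 0.1, no filter, both scalings and no trend. Over the same interval the 4 late genes had log2 differences between 0.52 and 0.94.

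Other activity-regulated genes are given beside these. Fosl2 averaged 10.8, 29.7 and 42.6 RPKM in the clean air, 30 min and 120 min groups, and its log2 difference of 2.02 ± 0.25 (SE) at 120 min passed the test (limma, adjusted p = 0.0143). That call was lost without clean air mouse 1 or 2, without any of the 120 min mice, or in a fit of those 2 groups alone, where adjusted p was 0.0638 to 0.125. Fosb, a further AP-1 subunit gene, averaged 4.77, 54.1 and 27 RPKM, and the nuclear receptor gene Nr4a3 averaged 1.98, 8.6 and 8.57 RPKM. Homer1, with means of 10.8, 13.5 and 32.9 RPKM, had most of its difference after 30 min. Its log2 difference of 1.63 ± 0.34 at 120 min had an adjusted p of 0.31 and did not pass.

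**Figure D2:**
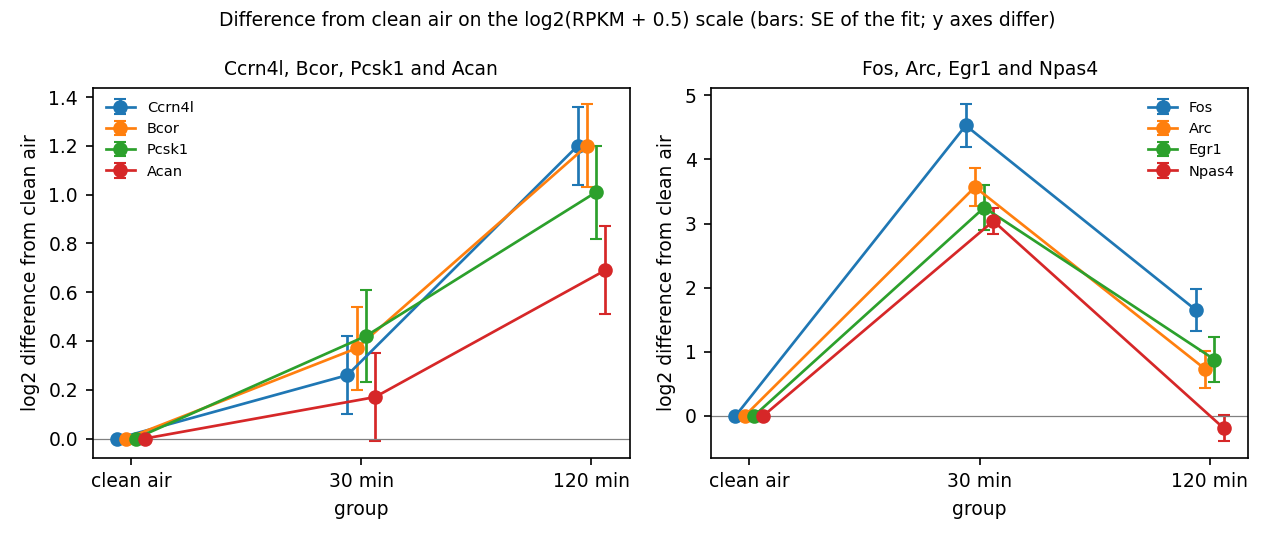
Mean log2(RPKM + 0.5) difference from clean air by group for the 4 late genes in the first panel and for 4 early genes in the second, with the bars giving the SE from the fit over all 9 mice. The late genes reach 0.69 to 1.20 at 120 min, most of it after 30 min, while Fos, Egr1, Npas4 and Arc peak at 30 min.

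Across all 12780 genes, limma called 18 genes (0.141%) between 30 min and clean air, of which 17 were higher and 1 lower. Between 120 min and clean air 11 genes (0.0861%) were called, with 9 higher and 2 lower. Between 120 min and 30 min 10 genes (0.0782%) were called, all lower, and none was called higher, where 176 of the higher genes had an unadjusted p under 0.05. The count at 120 min against clean air rested on single mice, falling to 0 if either clean air mouse 2 or 120 min mouse 3 was left out, to 3 without 120 min mouse 1 or 2 and to 6 without clean air mouse 1. Depth, recovered from the spacing of the values, ranged from 7.14e+06 to 2.98e+07 counted reads per library, and 12511 to 12815 genes reached 1 RPKM. The p-values set each difference of group means against the spread between mice within groups, estimated over all 3 groups in a single fit.

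RPKM divides by gene length, so the levels of the 4 genes can be set side by side. Ccrn4l exceeded 67% of tested genes in clean air and 85.5% at 120 min. Bcor moved from above 36.6% to above 61.1%, and Pcsk1 from above 39.2% to above 59.8%. Acan moved from above 24% to above 36.5%, so it stayed under the median tested gene, which stood at 9.65 RPKM in clean air and 9.91 at 120 min. The order was Ccrn4l, then Pcsk1 and Bcor, whose mice overlapped in every group, then Acan.

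All 4 genes have more exonic sequence than the median tested gene. In GENCODE M21, on the build GRCm38 and so not on the mm9 build named for the deposited values, Ccrn4l lies at chr3:51224447-51251644, a span of 27.2 kb with 10.7 kb of exonic sequence. Bcor lies at chrX:12036740-12160355 with 8.67 kb of exonic sequence in 124 kb, Pcsk1 at chr13:75089826-75134861 with 5.6 kb in 45 kb, and Acan at chr7:79053483-79115099 with 7.47 kb in 61.6 kb. The median tested gene spans 24.7 kb and holds 4.48 kb of exonic sequence, and the 4 early genes hold between 2.35 and 4.48 kb of exonic sequence in spans of 3.38 to 5.96 kb. If these exonic lengths were those used for the values, Ccrn4l was counted from 1952 to 9737 reads per library, Bcor from 544 to 2803, Pcsk1 from 405 to 1691 and Acan from 275 to 1053. Counting error was then between 1.01% and 6.03% of a value, and it covers counting only.

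Within a group the genes did not share one order of mice. Ccrn4l and Bcor were both highest in 120 min mouse 3 and in 30 min mouse 1, whereas Pcsk1 and Acan were both highest in 120 min mouse 1 and in 30 min mouse 2. In clean air, mouse 3 had the lowest Ccrn4l and Pcsk1 and the highest Bcor and Acan. That mouse also had 12.1 RPKM of Fos against 4.04 and 4.73 RPKM in the other clean air mice. Its Egr1 was 67.52 RPKM against 21.24 and 22.29, and its Arc 39.99 against 15.11 and 21.03. Npas4, Fosb, Fosl2 and Nr4a3 were also highest in it among the clean air mice, while Homer1 was lowest. Without it the log2 differences from clean air at 30 min were 4.99 for Fos, 3.79 for Egr1 and 3.95 for Arc.

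Over the 9 libraries the log2 levels of Ccrn4l and Bcor followed each other most closely of the 6 pairs, with Pearson's r = 0.983. The other pairs had r between 0.854 for Pcsk1 with Acan and 0.925 for Bcor with Acan. These correlations are carried by the group differences that chose the genes, and the points of a pair share a library and its depth. After subtracting each group's mean, r was 0.77 for Ccrn4l with Bcor, 0.52 after quantile normalization of the libraries. For the other pairs it lay between -0.43 and 0.10 and moved with single mice, between -0.65 for Bcor with Pcsk1 without 120 min mouse 2 and 0.55 for Pcsk1 with Acan without clean air mouse 3.

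**Figure D3:**
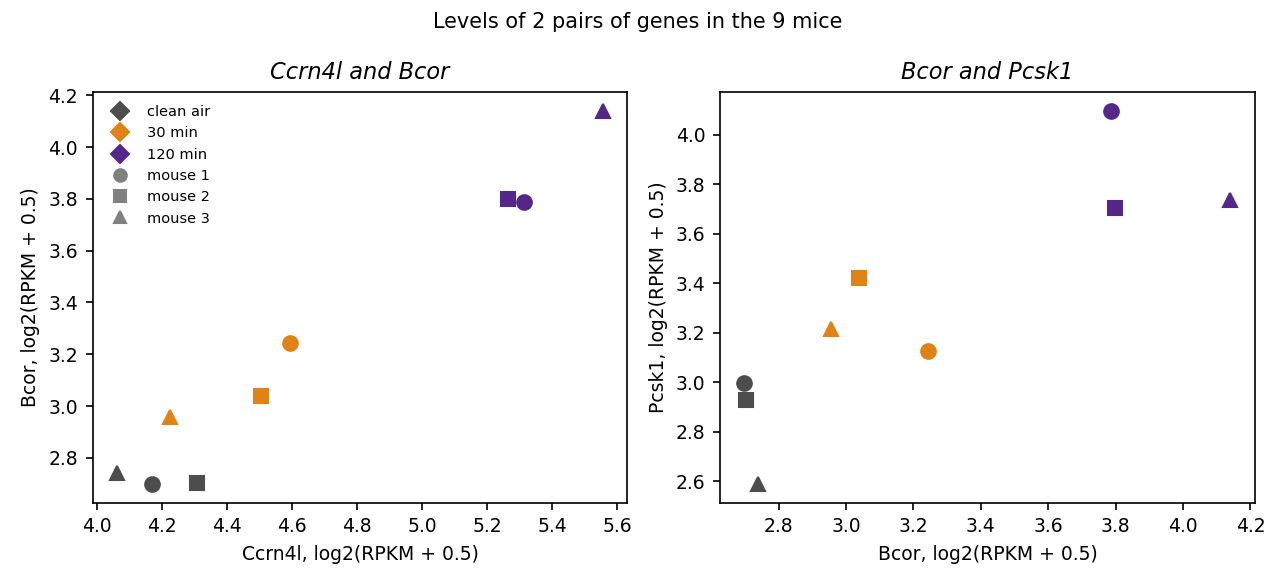
Log2(RPKM + 0.5) levels of Ccrn4l with Bcor and of Bcor with Pcsk1, with 1 point per mouse, colour for the group and marker shape for the mouse. Ccrn4l and Bcor rise along one line (r = 0.983 over 9 libraries), while Bcor and Pcsk1 follow each other less closely (r = 0.863 over 9 libraries).

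The 5 tested genes most like each of the 4 were taken by Pearson's r of log2 levels over the 9 libraries, as a description. Ccrn4l and Bcor named each other first and shared Cx3cl1, Bag4 and AK077398. Cx3cl1, the chemokine fractalkine made by neurons, averaged 228, 253 and 316 RPKM in the clean air, 30 min and 120 min groups (r = 0.967 with Ccrn4l). Bag4, a cochaperone gene, averaged 11.2, 13.6 and 18.4 RPKM (r = 0.973 with Bcor). The identifier of AK077398 is Ism1 in GENCODE and averaged 1.38, 1.58 and 2.42 RPKM (r = 0.977 with Ccrn4l). Amigo2, a neuronal adhesion gene, completed the list of Ccrn4l with r = 0.950, and the ephrin gene Efna3 that of Bcor with r = 0.963.

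For Pcsk1 the likeness was weaker, with Btbd12 (Slx4 in GENCODE, a DNA repair scaffold) at r = 0.946, Tmcc3 at 0.929, Mltk (Map3k20, a kinase) at 0.920, and Zfp142 and Serac1 both at 0.919. Mltk averaged 0.947, 1.24 and 2.32 RPKM in the 3 groups. Acan was nearest to the phospholipid flippase gene Atp11a, which the table holds under 2 identifiers with r = 0.984 and 0.939. Next came Tnc, which encodes the matrix protein tenascin C, with r = 0.965 and means of 1.43, 1.53 and 2.74 RPKM. Npas2, a paralog of Clock, had r = 0.955 with means of 8.16, 8.67 and 11.8 RPKM, and Sec24b, of the COPII coat, r = 0.949. These lists changed with the mice used, and those of Pcsk1 most, as none of its 5 genes was kept without clean air mouse 3. Without that mouse 2 of the 5 of Ccrn4l were kept.

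Genes of the pathways of the 4, in 10 lists, and other activity-regulated effectors, in a further list, came to 180 genes, of which 175 were found and 162 tested. At 120 min against clean air limma called none of the 162, where 26 had an unadjusted p under 0.05. Over all genes 0.0861% were called and 9.57% had an unadjusted p under 0.05. At 30 min Btg2, of the deadenylation list, and Arc, of the effector list, were called higher, and from 30 to 120 min the same 2 genes were called lower. Every 120 min mouse lay above every clean air mouse in 28 of the 162, or 17.3%, against 7.86% of all genes. Of the 28, 8 were among the 17 effectors, and the 10 pathway lists alone had 20 of 145, or 13.8%. The lists were chosen with earlier results of these data known, so nothing is read from these shares. Over all 12780 genes the median log2 difference from clean air was 0.08 at 30 min and 0.03 at 120 min.

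Around nocturnin, the 21 deadenylation genes had a median log2 difference of -0.04 at 120 min against clean air. The exception in time was Btg2, an antiproliferative gene whose protein recruits the CCR4-NOT deadenylase, with means of 5.46 ± 0.6, 38.9 ± 4.95 and 5.84 ± 0.579 RPKM (SD, n = 3 each). It rose by 2.72 ± 0.17 (SE) at 30 min (limma, adjusted p = 6.69e-05) and fell by 2.63 ± 0.17 by 120 min (adjusted p = 6.25e-05), so it had returned when Ccrn4l stood highest. The CCR4 deadenylase genes Cnot6 and Cnot6l averaged 8.08 and 3.95 RPKM in clean air, against 7.21 and 5.18 at 120 min, and Pde12 averaged 7.21 and 8.07 RPKM. Among 12 genes of NADP metabolism none was called, none had an unadjusted p under 0.05 at 120 min (9.57% of all genes did), and the median difference was 0.09. The NAD kinase gene Nadk averaged 34.2 RPKM in clean air and 35.4 at 120 min. The widest differences of that list were 0.34 ± 0.31 for G6pdx (adjusted p = 0.78), which turned to -0.07 without clean air mouse 3, and 0.23 ± 0.15 for Txnrd1 (adjusted p = 0.675), which was 0.14 without clean air mouse 2.

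Because Ccrn4l RNA is known to cycle, the clock genes are given beside it. None of the 17 tested was called by limma at 120 min, 6 had an unadjusted p under 0.05 (9.57% of all genes did), and the median log2 difference was 0.16. Clock, an activator of the loop, averaged 6.93, 10.1 and 12.3 RPKM in the clean air, 30 min and 120 min groups, a log2 difference of 0.78 ± 0.19 (SE) at 120 min (adjusted p = 0.339). Dbp, an output gene of the loop, averaged 85.2, 63.3 and 50.2 RPKM, a difference of -0.77 ± 0.18 (adjusted p = 0.339). The 5 of 17 clock genes with every 120 min mouse above every clean air mouse, as in 7.86% of all genes, were Clock, Npas2, Per2, Nfil3 and Bhlhb2. Per3, at -0.39 ± 0.19 (limma, adjusted p = 0.554), and Dbp lay wholly below, a placing whose share over all genes was not counted. The part of the clock genes in the course of Ccrn4l was not tested.

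Around Bcor, the 17 tested genes of PRC1.1 and of the BCL6 corepressors had a median log2 difference of 0.20 at 120 min. None was called by limma and 2 had an unadjusted p under 0.05 (9.57% of all genes did). Bcl6, the repressor that binds BCOR, averaged 16.4 ± 2.54, 19.5 ± 1.44 and 23.9 ± 3.96 RPKM (SD, n = 3 each). Its difference at 120 min was 0.53 ± 0.18 (SE, adjusted p = 0.386), with the 120 min mice above the clean air mice but overlapping the 30 min mice. Rybp, a subunit gene of variant PRC1, differed by 0.50 ± 0.32 (adjusted p = 0.674), with 0.23 without clean air mouse 3 and 0.79 without clean air mouse 2. Bcorl1, the paralog of Bcor, averaged 6.15, 6.93 and 8.23 RPKM, and the PRC1.1 subunit genes Pcgf1 and Kdm2b averaged 8.17 and 6.85 RPKM in clean air, against 6.05 and 5.99 at 120 min. Bcl6 and Bcorl1 were among 3 of the 17 genes with every 120 min mouse above every clean air mouse, as in 7.86% of all genes. The 120 min difference of Bcorl1 was 0.39 ± 0.18 (SE, limma, adjusted p = 0.534). For Pcgf1 it was -0.41 ± 0.45 (adjusted p = 0.828) and for Kdm2b -0.18 ± 0.19 (adjusted p = 0.823), so none of these passed. Of 12 other PRC1 subunit genes none was called and 2 had an unadjusted p under 0.05. The widest differences there were 1.18 ± 0.28 for Phc3 (adjusted p = 0.339) and 0.56 ± 0.18 for Pcgf3 (adjusted p = 0.361).

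Around Pcsk1, the 13 tested genes of prohormone processing had a median log2 difference of 0.07 at 120 min. None was called by limma and 2 had an unadjusted p under 0.05 (9.57% of all genes did). Pcsk2, the other neuroendocrine convertase gene, averaged 52.9 ± 10.5, 62.8 ± 3.8 and 60.1 ± 3.08 RPKM (SD, n = 3 each), so that Pcsk1 stood well under it in every group. The gene of the Pcsk1 inhibitor proSAAS, Pcsk1n, averaged 1030 RPKM in clean air, 755 RPKM at 30 min and 841 RPKM at 120 min. Scg5, whose product 7B2 is the chaperone of PC2, averaged 119, 139 and 117 RPKM, and Cpe, the carboxypeptidase that trims the cut peptides, 747, 748 and 750 RPKM. The widest differences of the list were -0.68 ± 0.29 (SE) for Pcsk4 (adjusted p = 0.5) and 0.52 ± 0.21 for the carboxypeptidase gene Cpd (adjusted p = 0.481). Neither passed, and between clean air and 120 min the mice overlapped for Pcsk2, Pcsk1n, Scg5 and Cpe.

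The 18 tested genes of granins and peptide precursors, which include substrates of PC1/3, had a median log2 difference of -0.05 at 120 min. None was called and 1 gene had an unadjusted p under 0.05 (9.57% of all genes did). That gene was Igf1, which differed by 1.02 ± 0.32 (SE) with an adjusted p of 0.361 in limma, and by 0.66 without clean air mouse 3. Pomc, a substrate gene, differed by -0.72 ± 0.50 (adjusted p = 0.696), with -0.39 without 120 min mouse 2 and -1.14 without 120 min mouse 1. Vgf, an activity-regulated granin gene, averaged 127, 115 and 114 RPKM in the 3 groups.

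Around Acan, the 10 tested perineuronal net genes had a median log2 difference of 0.22 at 120 min, with none called by limma and 3 at an unadjusted p under 0.05, as 9.57% of all genes were. Those were Tnr, Tnc and the versican gene Vcan, and in each the 120 min mice lay wholly above the clean air mice, as in 7.86% of all genes. Tenascin R, from Tnr, binds the lecticans, and its RNA was 11.26, 4.15 and 8.36 RPKM in clean air mice 1, 2 and 3 and 13.98, 11.7 and 13.07 RPKM in the 120 min mice. The log2 difference was 0.77 ± 0.29 (SE, adjusted p = 0.438), and 0.39 without clean air mouse 2. At 30 min Tnr already differed from clean air by 0.61 ± 0.29, with 12.89, 10.9 and 10.7 RPKM in mice 1, 2 and 3. Tnc was 1.41, 1.15 and 1.72 RPKM in clean air, against 3.04, 2.67 and 2.5 at 120 min, a difference of 0.76 ± 0.23 (adjusted p = 0.36). Vcan, a lectican like Acan, was 1.61, 0.89 and 1.98 RPKM in clean air, against 3.44, 2.92 and 3.16 at 120 min, a difference of 0.92 ± 0.36 (adjusted p = 0.462). Without clean air mouse 2 that difference was 0.68. Of these 3 genes only Tnc also had every 120 min mouse above every 30 min mouse, where 2.09% of all genes had both placings.

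The lecticans did not move alike in their means. Brevican, from Bcan, averaged 166, 148 and 142 RPKM in the clean air, 30 min and 120 min groups, while neurocan, from Ncan, averaged 69.7, 75.6 and 83.3 RPKM. Per length, the mean of Acan lay far below both in every group and above that of Vcan. The link protein gene Hapln1 averaged 1.98, 2.28 and 1.99 RPKM. None of the 9 tested lectican proteases and inhibitors was called and none had an unadjusted p under 0.05 at 120 min, with a median of 0.08 and the widest differences in Timp3 (0.37 ± 0.22, adjusted p = 0.652) and Adamts5 (-0.36 ± 0.23, adjusted p = 0.676). Timp3 had 0.19 without clean air mouse 3 and 0.23 without 120 min mouse 2, and Adamts5 had -0.20 without 120 min mouse 3 and -0.54 without 120 min mouse 2. Of 16 chondroitin sulfate synthesis genes none was called, 1 had an unadjusted p under 0.05 (9.57% of all genes did) and the median was 0.07. The sulfotransferase gene Chst15 differed by 0.65 ± 0.22 (adjusted p = 0.386) and the initiating xylosyltransferase gene Xylt1 by 0.47 ± 0.31 (adjusted p = 0.68), which fell to 0.14 without clean air mouse 2 and 0.28 without 120 min mouse 1.

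The 17 other activity-regulated effectors had a median log2 difference of 0.42 at 30 min and 0.39 at 120 min against clean air, beside 0.08 and 0.03 over all genes. Arc was called higher at 30 min and lower from 30 to 120 min by limma. At 120 min against clean air none was called and 6 had an unadjusted p under 0.05 (9.57% of all genes did). With every 120 min mouse above every mouse of both other groups, Homer1, Nptx1, Nptx2, Cdkn1a and Kcna1 were placed as the 4 late genes were, 5 of 17 where 2.09% of all genes were. The list was chosen with earlier results of these data known, so nothing is read from that count. The cell cycle inhibitor gene Cdkn1a averaged 59.2, 80.8 and 101 RPKM in the 3 groups, and the neuronal pentraxin gene Nptx2 averaged 38.5, 42.7 and 59 RPKM.

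**Figure D4:**
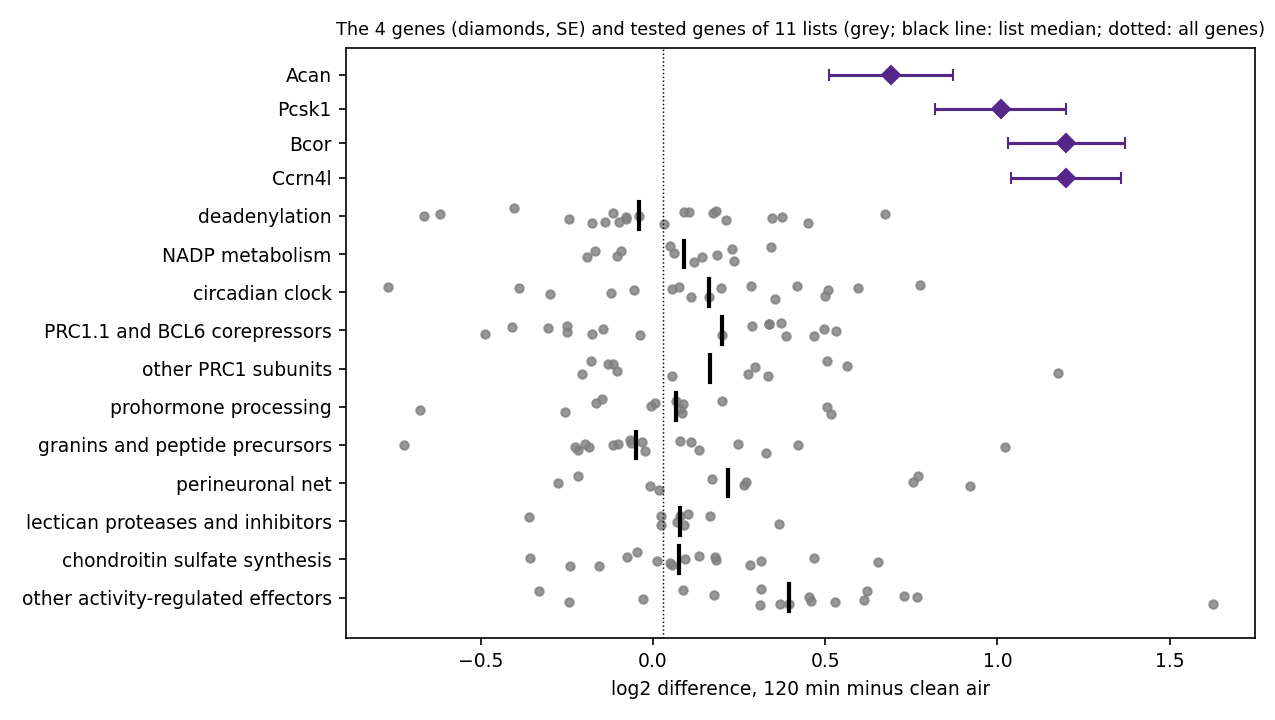
Log2(RPKM + 0.5) difference of 120 min minus clean air for each tested gene of 11 lists, with 1 point per gene and a black line at the list median, under the 4 late genes (diamonds) with their SE, and a dotted line at the median of all tested genes. The list medians lie between -0.05 and 0.39, and the 4 late genes between 0.69 and 1.20.

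Markers of 11 cell types were read in the same libraries. All were found above 0 in each group except Hba-a1, a haemoglobin gene, and a few that were not found in the table. None of the 56 tested markers was called by limma at 120 min against clean air, where 0.0861% of all genes were. Of the 56, 5 had an unadjusted p under 0.05, where 9.57% of all genes did. The 8 mitral and tufted cell markers summed to 1044 to 1442 RPKM in clean air, 1031 to 1195 RPKM at 30 min and 1151 to 1227 RPKM at 120 min, with a median log2 difference of 0.41 at 120 min over the 7 tested. Of these 7, 3 had an unadjusted p under 0.05 in limma, all of them higher, where 9.57% of all genes did. In 2 of the 7 every 120 min mouse lay above every clean air mouse, where 7.86% of all genes were so placed. The summed level of the 8 overlapped between groups. The 6 granule and GABAergic interneuron markers found summed to 1367 to 1589 RPKM in clean air and 1416 to 1523 at 120 min. The 7 markers of frontal cortex excitatory neurons, which adjoining tissue could bring in, summed to 32.5 to 44.1 RPKM in clean air and 31.4 to 40 at 120 min. In 2 of the 11 lists the sums separated at 30 min from clean air. The 4 dopaminergic periglomerular markers summed to 168 to 197 RPKM in clean air, 202 to 236 RPKM at 30 min and 188 to 275 RPKM at 120 min. The 3 red blood cell markers found summed to 38 to 145 RPKM in clean air, 153 to 197 RPKM at 30 min and 46.3 to 189 RPKM at 120 min. Both overlapped between clean air and 120 min. The 6 endothelial and mural cell markers summed to 113 to 118 RPKM in clean air, 85.1 to 119 RPKM at 30 min and 92.8 to 111 RPKM at 120 min. That list alone separated between clean air and 120 min, with the lower sums at 120 min. Its markers did not move alike, as 4 of the 6 had log2 differences above 0 at 120 min. These ranged from -0.44 to 0.74, with a median of 0.25, against 0.03 over all genes. The part of these markers in the levels of the 4 genes was not tested.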

How the data were processed

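RNA of 9 olfactory bulb samples, 3 mice in each of 3 groups taken from the sample labels, was sequenced from paired ends. The deposited values are RPKM with 2 decimals, made by the authors. Reads were aligned with Bowtie to mm9, per the submitters' processing notes. The sources used here do not give the Bowtie version, the annotation, how reads were counted, how reads with several matches were treated or whether strand was used, so overlapping genes and near-identical copies could share reads. Of 27497 identifiers, 7969 were at 0 in all libraries.

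The 12780 genes whose mean reached 1 RPKM were tested with limma 3.58.1 (R 4.3.3) after a log2(RPKM + 0.5) transform. A single fit covered the 3 groups, with a mean-variance trend and two-sided tests, and a gene was called where its p, adjusted by Benjamini-Hochberg over all tested genes, was under 0.05. The fit was tested on simulated data. Depth was recovered from RPKM steps of annotated RNAs under 200 nt at a length 34 nt shorter than annotated, where 86.9% to 93.9% of multiples were whole within 0.05, and the sources do not say whether a read or a pair was the unit. A count of 3 in a gene of 1 kb is worth 0.101 to 0.42 RPKM.

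The 4 genes, the lists and the tests were chosen with earlier results of these data known. Named were the 4 genes, the 5 genes most like each, fixed partners and time-course genes, and in each list the called genes or otherwise the 2 with the widest 120 min difference. Other genes (Per2, Nfil3, Bhlhb2, Per3, Tnc as a list member, Nptx1, Nptx2, Cdkn1a, Kcna1) were named after their values were seen. Alternatives were other pseudocounts, filters, scalings, trend, fits of 2 groups, a block by mouse number and leaving out each mouse. Vcan, Kdm2b, Pde12 and Pomc are named Cspg2, Fbxl10, E430028B21Rik and Pomc1 in the table.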

Additional observations from a re-analysis of the deposited data

How the results depend on the processing

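The 12 log2 differences of Ccrn4l, Bcor, Pcsk1 and Acan stayed above 0 in each alternative run, 18 per gene and 17 for Acan, which a filter at 5 RPKM removes. At 30 min against clean air they ranged from 0.18 to 0.37 for Ccrn4l, 0.28 to 0.43 for Bcor, 0.29 to 0.50 for Pcsk1 and 0.06 to 0.25 for Acan. At 120 min against clean air they ranged from 1.11 to 1.26 for Ccrn4l, 1.08 to 1.26 for Bcor, 0.88 to 1.09 for Pcsk1 and 0.59 to 0.77 for Acan. The number of genes called at 120 min against clean air was 7 with the filter at 5 RPKM, 2 in a fit of those 2 groups alone and 0 to 11 without single mice. Of the 5 genes most like Pcsk1, 3 were kept with the filter at 5 RPKM and 2 after quantile normalization. Without single mice 2 to 5 were kept for Ccrn4l, 2 to 4 for Bcor, 0 to 3 for Pcsk1 and 2 to 4 for Acan. The 120 min difference of G6pdx ranged from -0.07, without clean air mouse 3, to 0.60. The cause was not tested.

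With mouse number as a replicate block, 22, 11 and 10 genes were called in the 3 comparisons, against 18, 11 and 10, and 1 listed gene instead of none at 120 min against clean air, Homer1 (limma, adjusted p = 0.0252). Same-numbered mice deviated together with r from 0.081 to 0.444 in 9 pairs, against -0.38 to 0.0865 in 18 other pairs, and each mouse correlated best with its own number in both other groups, a hint from the data. Not every pair exceeded 0.1 and the labels do not pair the mice. The numbers used are those of the sample titles, and the sample descriptions number clean air mice 2 and 3 otherwise than the odor mice. The block is therefore given here only. Depth sets a counting error of up to 6.03% on a value of the 4 genes.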
